A study of Mus musculus with 47 samples.

Results

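The mitotic genes described here are 44 listed genes that drive or carry out cell division: the kinase CDK1 with its cyclins and activators, the Aurora and Polo kinases, the spindle checkpoint, the machinery of anaphase, kinetochores, spindle motors, cytokinesis and chromosome structure. Only probe sets annotated with exactly 1 gene symbol were used, and where a gene had several, the brightest on average was taken. Of the 44 genes, 42 had such a probe set, out of 12393 genes measured in this way, and all 42 passed the filter on low signal, which left 8675 tested genes. Ccnb1 and Espl1 had no probe set with a single symbol, and neither enters any count below.

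The cells were JB6, an epidermal mouse line in which tumour promotion is studied, grown in MEM with 5% fetal bovine serum, and their RNA was measured on 47 Affymetrix arrays. In one of the lines a retrovirus delivered a short hairpin RNA (shRNA) aimed at AnxA2, the calcium- and phospholipid-binding annexin A2, and the other carried the Ps vector (called vector cells here), both selected with puromycin. Cells received 10 or 100 cGy of X-rays or none, and RNA was taken at 2, 6 and 24 h. The question put to the mitotic genes was how their RNA differed by dose at 6 h, how it changed by 24 h, and how the lines differed. AnxA2 shRNA cells gave 3 arrays each at 2, 6 and 24 h after 10 cGy, 3 each at 2, 6 and 24 h after 100 cGy, and 3 each of untreated cells at 2 and 24 h. Vector cells had the same 8 groups with 3 arrays each, except 10 cGy at 24 h with 2 arrays (replicates 1 and 3). No untreated 6 h group is among these samples, so at 6 h the doses were set against each other. Each genotype is a single selected line, and the labels do not say whether replicates came from separate cultures, so p-values measure the spread between these samples, which may be technical.

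Entry into mitosis depends on CDK1 bound to cyclin A or cyclin B and freed of inhibitory phosphate by CDC25 phosphatases. Most genes of this kind are transcribed late in the cell cycle under the MuvB complex with B-MYB and FOXM1, and their promoters are known for CCAAT boxes and the cell cycle genes homology region (CHR). After DNA damage, cells stop before mitosis while these regulators are held back. In bulk RNA, fewer cells in G2 and mitosis and less mitotic RNA per cell cannot be told apart.

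Promoter windows of 300 bases around the gene start (RefSeq, GRCm38.p6) were matched for 34 of the 42 measured genes, as 37 windows. A CCAAT box (CCAAT on either strand) was present in 81.1% of these windows, against 37.4% of all 32841 windows. The CHR letters (TTTGAA on either strand) were in 78.4% of the mitotic windows, against 17.9% of all windows. Both were found in 70.3% of the mitotic windows and 6.95% of all. These matches are a description and not a statement that a factor binds there. The windows below belong to the 4 genes with both motifs and the smallest unadjusted p for the 6 h dose difference in AnxA2 shRNA cells, among those whose sequence can be shown. Capitals mark the CCAAT box or its reverse ATTGG, and TTTGAA, and the 2 motifs overlap in none of the 4. They are Ckap2 at chr8:22185770-22186069 (minus strand), Prc1 at chr7:80294201-80294500 (plus strand), Cdk1 at chr10:69352863-69353162 (minus strand) and Cenpf at chr1:189688037-189688336 (minus strand), each written 5′ to 3′ in the direction of its gene.
Ckap2: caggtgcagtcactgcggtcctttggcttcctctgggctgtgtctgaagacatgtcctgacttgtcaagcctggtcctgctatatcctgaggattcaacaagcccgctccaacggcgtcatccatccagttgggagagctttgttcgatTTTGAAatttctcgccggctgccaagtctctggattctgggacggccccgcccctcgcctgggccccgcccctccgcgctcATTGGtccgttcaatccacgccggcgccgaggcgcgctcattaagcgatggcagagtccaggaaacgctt
Prc1: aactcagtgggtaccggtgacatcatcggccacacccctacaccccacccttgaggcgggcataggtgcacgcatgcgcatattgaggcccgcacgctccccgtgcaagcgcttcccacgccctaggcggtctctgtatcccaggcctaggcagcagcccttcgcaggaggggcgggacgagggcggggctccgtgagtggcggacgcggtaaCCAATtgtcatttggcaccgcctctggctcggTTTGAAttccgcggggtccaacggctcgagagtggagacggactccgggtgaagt
Cdk1: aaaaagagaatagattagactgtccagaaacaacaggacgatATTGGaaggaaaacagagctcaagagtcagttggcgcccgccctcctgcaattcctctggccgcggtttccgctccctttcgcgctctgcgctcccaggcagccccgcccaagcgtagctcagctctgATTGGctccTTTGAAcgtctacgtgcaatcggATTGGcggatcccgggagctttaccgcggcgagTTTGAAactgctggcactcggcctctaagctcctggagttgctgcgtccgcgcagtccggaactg
Cenpf: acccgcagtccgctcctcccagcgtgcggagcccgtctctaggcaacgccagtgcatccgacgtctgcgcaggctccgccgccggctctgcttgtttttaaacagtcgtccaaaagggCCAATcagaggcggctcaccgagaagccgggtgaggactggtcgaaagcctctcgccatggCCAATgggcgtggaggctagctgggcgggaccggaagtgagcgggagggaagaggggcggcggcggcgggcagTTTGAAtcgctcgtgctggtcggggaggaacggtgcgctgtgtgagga
In these windows Ckap2 and Prc1 hold 1 CCAAT box and 1 CHR each, Cdk1 holds 3 and 2, and Cenpf holds 2 and 1.

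Anxa2, the targeted gene, had log2 signals of 10.58 to 11.23 (median 11.06) in the 24 AnxA2 shRNA arrays and 12.25 to 12.66 (median 12.52) in the 23 vector arrays. Of 12 keratinocyte and epithelial markers 5 were above the filter limit, and Cdh1 (2.37) and Trp63 (3.32) were under it, whereas 11 of 12 mesenchymal markers were above it, with Vim at 13.15. Krt14 averaged 6.57 in AnxA2 shRNA cells and 3.84 in vector cells. Of 9 leukocyte markers 4 were above the limit, the highest being Cd14 at 7.78, and Ptprc was under it at 2.58. The log2 signal of the Gapdh 3′ probe set minus that of its 5′ probe set, a sign of RNA quality, was 1.06 in AnxA2 shRNA cells at 6 h after 10 cGy, replicate 1. On the other 46 arrays it lay between -0.09 and 0.59. The replicate 3 arrays of vector cells at 2 h stood apart from their groups in the mitotic average given next. Several counts that rest on these arrays are given with and without them.

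The level of the mitotic genes on an array was summarised as the average over the 42 genes of the log2 signal minus each gene's mean over all arrays. This average in AnxA2 shRNA cells was 0.19 to 0.23 in untreated cells at 2 h, -0.14 to -0.07 at 6 h after 10 cGy, 0.02 to 0.07 at 6 h after 100 cGy, and -0.01 to 0.05 at 24 h after 100 cGy. In vector cells it was 0.08 to 0.23 untreated at 2 h, -0.38 to -0.24 at 6 h after 10 cGy, -0.06 to -0.04 at 6 h after 100 cGy, and -0.27 to -0.24 at 24 h after 100 cGy. The 10 cGy arrays at 6 h were thus the lowest of all AnxA2 shRNA arrays, and at 6 h the 100 cGy arrays lay above the 10 cGy arrays in each line without overlap. The replicate 3 arrays of vector cells at 2 h read 0.23 untreated, 0.19 after 10 cGy and 0.20 after 100 cGy, each the highest of its group. Gene by gene, the 10 cGy group at 6 h had the lowest mean of its line for 24 of 42 genes in AnxA2 shRNA cells and 26 of 42 in vector cells. The untreated 2 h group had the highest mean for 17 genes in AnxA2 shRNA cells and 24 in vector cells, and in vector cells the 100 cGy group at 24 h was the lowest for 12 genes. Lowest and highest groups were not counted over all genes, so these counts have no background.

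**Figure D1:**
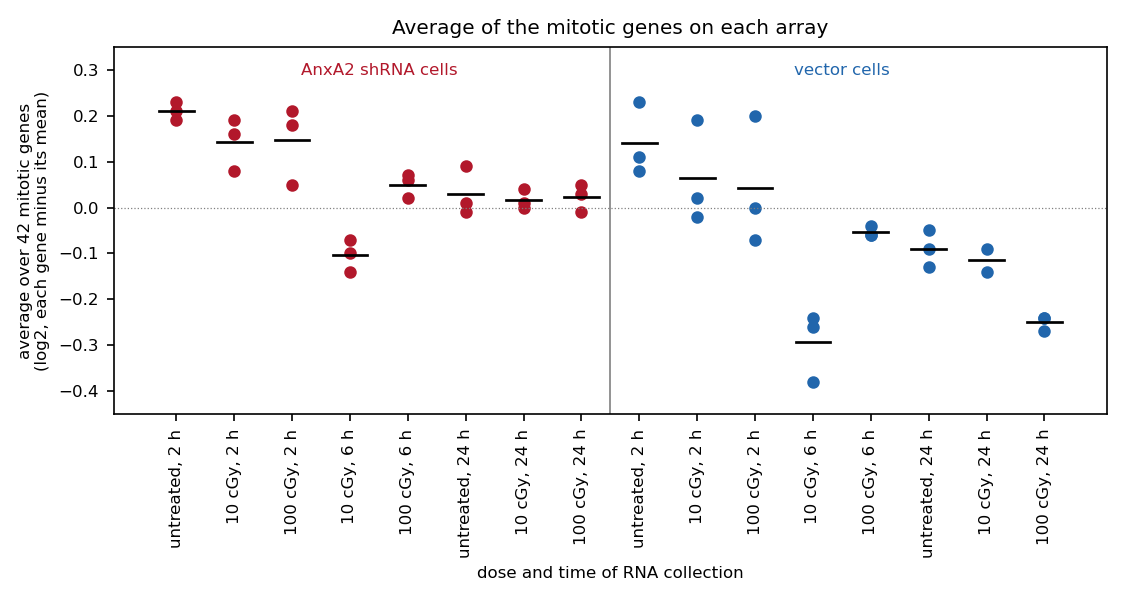
Average of the 42 mitotic genes on each of the 47 arrays (log2, each gene minus its mean over all arrays), by line, dose and time. Points are arrays and bars are group means. The 10 cGy arrays at 6 h lie at -0.14 to -0.07 in AnxA2 shRNA cells and -0.38 to -0.24 in vector cells, below the 100 cGy arrays of the same line and time.

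**Figure D2:**
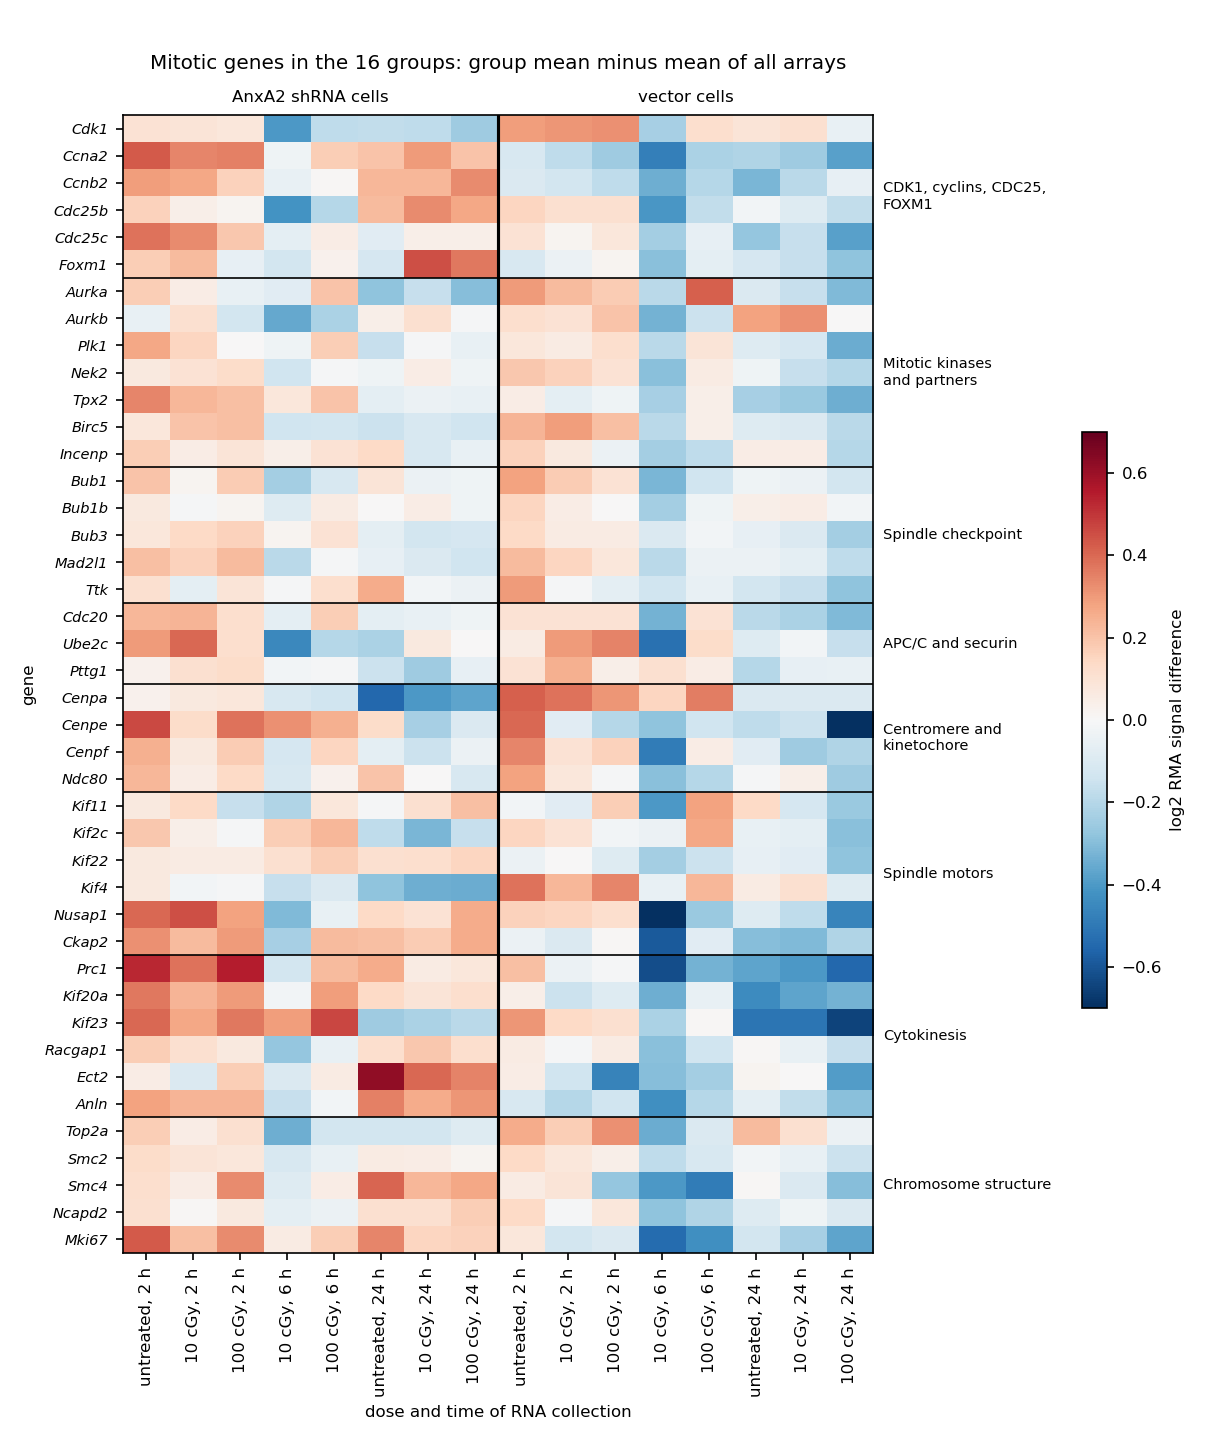
Group mean of each of the 42 mitotic genes minus its mean over all arrays (log2 RMA signal, colour, limited to 0.7 in either direction), with genes in rows ordered by role and the 16 groups in columns. The 10 cGy column at 6 h holds the lowest mean of its line for 24 genes in AnxA2 shRNA cells and 26 in vector cells, a count not made over all genes.

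At 6 h, vector cells given 100 cGy had more RNA of 5 mitotic genes than vector cells given 10 cGy: Aurka, Cenpf, Ckap2, Cdc20 and Cdk1 (limma, adjusted p under 0.05). These were all of the higher genes among the 8675 tested, a background of 0.0576%, and 3 genes were lower (0.0346%): Chaf1b, Ccne2 and Ung, the last, a uracil-DNA glycosylase gene, named after its values were seen. The mitotic list was chosen with earlier results of these data known, so its share beside this background is a description and not a test. In AnxA2 shRNA cells 0 of 42 mitotic genes and 0 of 8675 genes (0%) passed the limma test in either direction, and 11 mitotic genes and 299 genes in all had an unadjusted p under 0.05. The median difference over the 42 genes was 0.14 in AnxA2 shRNA cells and 0.22 in vector cells, whereas over all genes it was -0.01 and 0.00 in the same order of lines. In each line 40 of the 42 differences were above 0. All 100 cGy arrays lay above all 10 cGy arrays for 13 mitotic genes in AnxA2 shRNA cells (background 4.17%) and for 23 in vector cells (background 7.31%).

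The vector count rests on every one of the 6 arrays compared: leaving out any one left 1 or 2 genes called, fitting only the 2 groups left 0, and testing without the filter on low signal left 3. Aurka was called in each of those 6 fits, with adjusted p from 0.00135 to 0.0386, and Cenpf in 4 of them, while Ckap2, Cdc20 and Cdk1 were called in 0.

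CDK1, the kinase whose activation starts mitosis, is encoded by Cdk1. Its log2 signal was 11.14, 11.19 and 11.19 in vector cells at 6 h after 100 cGy, against 10.86, 10.83 and 10.78 after 10 cGy. The AnxA2 shRNA arrays read 10.84, 10.93 and 10.84 after 100 cGy, against 10.48, 10.69 and 10.79 after 10 cGy. The doses did not overlap in either line, and the limma difference was 0.35 ± 0.07 (SE, adjusted p = 0.0295) in vector cells. The corresponding value in AnxA2 shRNA cells was 0.22 ± 0.07 (SE), with adjusted p = 0.999 in the limma fit. Ccna2, which encodes cyclin A2, a CDK partner in S phase and early mitosis, differed by 0.20 ± 0.09 in AnxA2 shRNA cells and 0.26 ± 0.09 in vector cells (SE) and was not called. The remaining genes of the group were the cyclin gene Ccnb2, the phosphatase genes Cdc25b and Cdc25c and the transcription factor gene Foxm1. Their differences lay between 0.06 and 0.23 in AnxA2 shRNA cells and 0.14 and 0.24 in vector cells.

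Among the mitotic kinases, Aurka, which encodes the centrosomal Aurora A kinase that matures spindle poles, had the smallest p of the mitotic genes in vector cells. Its signal was 9.73, 9.81 and 9.78 after 100 cGy, against 9.33, 9.14 and 9.03 after 10 cGy in vector cells. The gap between the doses, 0.61 ± 0.10 (SE), is a fold of 1.52, with limma adjusted p = 0.00241. Aurka in AnxA2 shRNA cells read 9.51, 9.66 and 9.51 after 100 cGy, against 9.24, 9.30 and 9.31 after 10 cGy, again without overlap. That difference was 0.27 ± 0.10 (SE, limma adjusted p = 0.999). Tpx2, whose product targets Aurora A to the spindle, differed by 0.13 ± 0.08 in AnxA2 shRNA cells and 0.26 ± 0.08 in vector cells (SE), with all 100 cGy arrays above all 10 cGy arrays in each. Plk1, the Polo kinase of mitotic entry and exit, read 9.00, 9.01 and 8.99 after 100 cGy, against 8.63, 8.92 and 8.84 after 10 cGy, in AnxA2 shRNA cells. In vector cells Plk1 read 8.96, 8.95 and 8.86 after 100 cGy, against 8.78, 8.59 and 8.53 after 10 cGy, and the groups did not overlap in either line. Birc5, encoding survivin of the chromosomal passenger complex, differed by 0.01 ± 0.10 in AnxA2 shRNA cells and 0.24 ± 0.10 in vector cells (SE), neither called.

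The spindle checkpoint holds anaphase until chromosomes are attached, and Cdc20 is the activator of the anaphase-promoting complex (APC/C) on which it acts. Cdc20 signal was 10.70, 10.74 and 10.69 in vector cells after 100 cGy, against 10.36, 10.28 and 10.19 after 10 cGy. The AnxA2 shRNA arrays read 10.78, 10.86 and 10.69 after 100 cGy, against 10.39, 10.65 and 10.59 after 10 cGy, also without overlap. The difference was 0.43 ± 0.09 (SE, limma adjusted p = 0.0399) in vector cells, where 2 further tested probe sets of Cdc20 differed by 0.28 and 0.30. It was 0.24 ± 0.09 (SE, limma adjusted p = 0.999) in AnxA2 shRNA cells, with 0.01 and 0.10 in the other probe sets. Ube2c, the ubiquitin-conjugating enzyme of the APC/C, had a larger vector difference, 0.65 ± 0.19 (SE), but a larger spread, and it was not called (limma adjusted p = 0.683). Of the checkpoint genes Bub1, Bub1b, Bub3, Mad2l1 and Ttk, 0 of 5 passed in either line (limma). Unadjusted p was under 0.05 for Mad2l1 (0.0491) in AnxA2 shRNA cells and for Bub1b (0.0166) in vector cells. Pttg1, which encodes securin, the inhibitor of separase, differed by 0.00 ± 0.09 in AnxA2 shRNA cells and -0.06 ± 0.09 in vector cells (SE).

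At the kinetochore, Cenpf encodes a large protein that accumulates in G2 and joins outer kinetochores. It read 8.50, 8.39 and 8.40 in vector cells after 100 cGy, against 8.04, 7.97 and 7.65 after 10 cGy, a limma difference of 0.54 ± 0.10 (SE, adjusted p = 0.00347). The AnxA2 shRNA arrays read 8.54, 8.54 and 8.52 after 100 cGy, against 8.43, 8.24 and 8.11 after 10 cGy, and the doses overlapped in neither line. A second tested Cenpf probe set differed by 0.16 in AnxA2 shRNA cells and only 0.07 in vector cells, and with the mean of the gene's probe sets the vector call was lost (limma adjusted p = 0.493). Cenpa, the centromeric histone H3 variant, differed by -0.03 ± 0.10 in AnxA2 shRNA cells and 0.21 ± 0.10 in vector cells (SE), neither called.

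Ckap2, whose product binds spindle microtubules, had the largest 6 h dose difference in AnxA2 shRNA cells. There it read 10.08, 10.10 and 10.03 after 100 cGy, against 9.45, 9.66 and 9.74 after 10 cGy. Vector arrays read 9.76, 9.82 and 9.75 after 100 cGy, against 9.29, 9.32 and 9.17 after 10 cGy. Every 100 cGy array lay above every 10 cGy array of its line. The difference was 0.45 ± 0.10 (SE, limma adjusted p = 0.438) in AnxA2 shRNA cells and 0.51 ± 0.10 (SE, limma adjusted p = 0.0275) in vector cells. Nusap1, which bundles spindle microtubules, differed by 0.26 ± 0.13 in AnxA2 shRNA cells and 0.53 ± 0.13 in vector cells (SE, limma adjusted p = 0.999 and 0.176 in that order). The motor gene Kif11, which separates spindle poles, had the largest vector difference, 0.67 ± 0.29 (SE), and the largest spread of these, and was not called.

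For cytokinesis, Prc1 crosslinks the microtubules of the central spindle and Kif20a is a motor found there. Prc1 read 10.02, 9.96 and 10.12 after 100 cGy, against 9.58, 9.80 and 9.71 after 10 cGy, in AnxA2 shRNA cells, a difference of 0.34 ± 0.11 (SE, limma adjusted p = 0.999). In vector cells it read 9.49, 9.54 and 9.43 after 100 cGy, against 9.15, 9.17 and 9.28 after 10 cGy, a difference of 0.29 ± 0.11 (SE, limma adjusted p = 0.917). The doses did not overlap in either line. Kif20a differed by 0.31 ± 0.09 in AnxA2 shRNA cells and 0.29 ± 0.09 in vector cells (SE), and neither was called. For the chromosome genes the median over Top2a (topoisomerase II alpha), Smc2, Smc4 and Ncapd2 (condensin subunits) and Mki67 (the Ki-67 antigen) was 0.11 in AnxA2 shRNA cells and 0.07 in vector cells.

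The Gapdh difference of 1.06 belongs to one of the 3 AnxA2 shRNA arrays at 6 h after 10 cGy. That array had the lowest Foxm1 (7.13, against 7.81 on each of the other 2 arrays) and the lowest Kif11 (7.08, against 7.91 and 7.93). Among the genes called for dose at 6 h in vector cells, it was the lowest of its group for Cdk1, Aurka, Cdc20 and Ckap2. Cdk1 read 10.48 on it, against 10.69 and 10.79, and Ckap2 read 9.45, against 9.66 and 9.74. It was the highest of its group for Cenpf (8.43, against 8.24 and 8.11). The AnxA2 shRNA count at 6 h was 0 with it and without it, and its part in the differences was not tested.

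The 6 h dose difference was not shown to differ between the lines. For AnxA2 shRNA minus vector, 0 of 42 mitotic genes and 0 of 8675 genes (0%) passed the limma interaction test, and 2 mitotic genes and 346 genes in all had an unadjusted p under 0.05. Aurka had the smallest p of the 42, with -0.33 ± 0.14 (SE, limma adjusted p = 0.946). Across the 42 genes the differences in the lines, which share no array, had Pearson r = 0.64 and Spearman rho = 0.65, and 38 genes were above 0 in both. This is across genes, which are not independent replicates.

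In a comparison added after the data were seen, the dose difference averaged over both lines gave 5 higher mitotic genes, the same 5 as in vector cells alone, against a background of 0.0692%. Here too the list was chosen with earlier results of these data known. Ckap2 was higher by 0.48 ± 0.07 (SE, limma adjusted p = 0.000726), Aurka by 0.44 ± 0.07 (SE, limma adjusted p = 0.000726) and Cenpf by 0.41 ± 0.07 (SE, limma adjusted p = 0.00152). Cdc20 was higher by 0.33 ± 0.06 (SE, limma adjusted p = 0.00999) and Cdk1 by 0.28 ± 0.05 (SE, limma adjusted p = 0.0034). The sixth higher gene was Mdm2, the p53-induced inhibitor of p53, with 0.43 ± 0.08 (SE, limma adjusted p = 0.00294). When each of the 12 arrays was left out in turn, 4 to 6 mitotic genes were called. Aurka, Cenpf, Ckap2 and Cdk1 were called in all 12 fits, and Cdc20 in 9. Fitting only the compared groups called 2 mitotic genes, and a replicate block within line and time called 8.

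**Figure D3:**
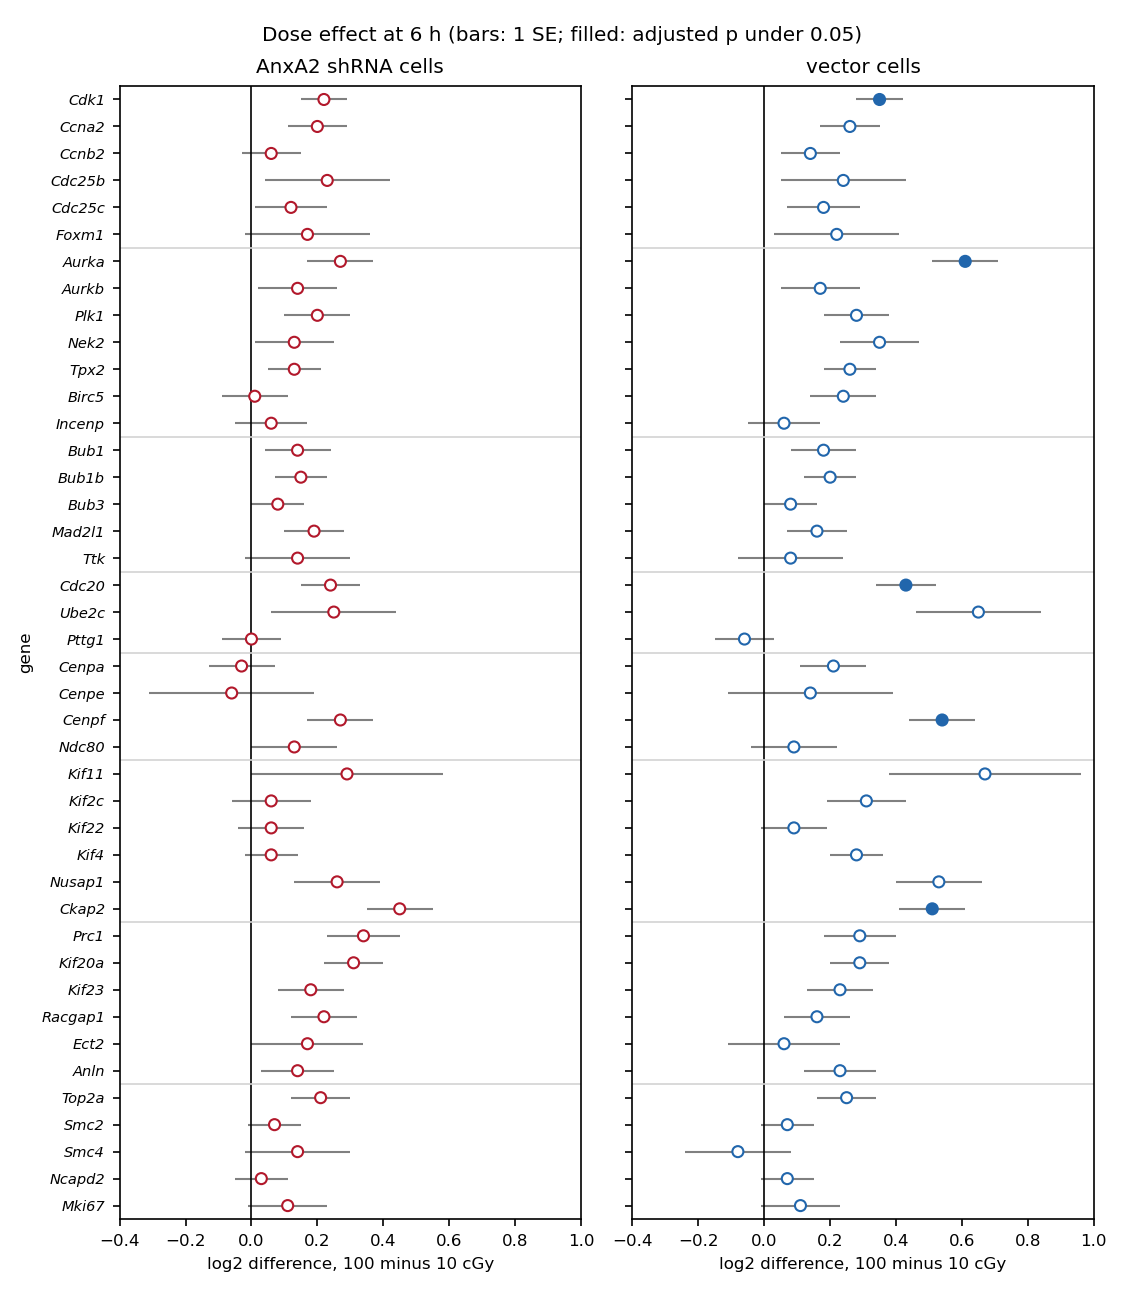
Difference between 100 and 10 cGy at 6 h (log2, 100 minus 10 cGy) for each of the 42 mitotic genes, in AnxA2 shRNA cells on the left and vector cells on the right. Points are limma estimates, bars are 1 SE and filled points have adjusted p under 0.05. In each line 40 of 42 genes lie above 0, and 5 are filled, all in vector cells.

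Other gene groups at 6 h were described by the same comparison. Of 52 other mitotic genes, 0 passed in either line by limma, with a median of 0.09 in each line. Of these, 42 in AnxA2 shRNA cells and 38 in vector cells were above 0. The one with the smallest p in vector cells was Dlgap5, a spindle microtubule protein, with 0.40 ± 0.09 (SE, limma adjusted p = 0.0874). Of 48 G1 and S phase genes, 0 passed in AnxA2 shRNA cells and 2 were lower in vector cells after 100 cGy. These were Chaf1b, a chromatin assembly factor subunit, at -0.50 ± 0.08 (SE, limma adjusted p = 0.00241), and Ccne2, cyclin E2, at -0.77 ± 0.16 (SE, limma adjusted p = 0.0419). Cdkn1a, which encodes the CDK inhibitor p21, differed by 0.12 ± 0.11 in AnxA2 shRNA cells and 0.29 ± 0.11 in vector cells (SE), and the MuvB partner gene Mybl2 by -0.01 ± 0.12 and -0.03 ± 0.12 in that order, none called.

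Some mitotic genes were lower at 6 h than at 2 h after 10 cGy, in comparisons that share their 6 h arrays with those above. After 10 cGy, 15 of 42 were lower at 6 h in AnxA2 shRNA cells (limma, background 4.12%) and 21 of 42 in vector cells (background 3.03%). After 100 cGy, 3 were lower in AnxA2 shRNA cells (background 5.1%) and 2 in vector cells (background 2.94%). The median change after 10 cGy was -0.22 in AnxA2 shRNA cells and -0.30 in vector cells, and after 100 cGy it was -0.12 in AnxA2 shRNA cells and -0.09 in vector cells. In vector cells after 10 cGy the change was below 0 for all 42 genes. Some cell type markers also differed between 2 and 6 h by limma. The mesenchymal marker Pdgfrb was higher at 6 h in both lines at both doses. In AnxA2 shRNA cells Krt14 changed by -0.78 after 10 cGy and -0.71 after 100 cGy, and Col3a1 and Twist1 were lower after 100 cGy. Whether these markers bear on the mitotic counts was not tested.

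Nusap1 was at 7.84, 7.65 and 7.55 in 10 cGy vector cells at 6 h, against 8.45, 8.45 and 8.97 at 2 h, a fall of 0.94 that no array overlapped. Written as a difference this is -0.94 ± 0.13 (SE, limma adjusted p = 6.78e-06). Nusap1 in AnxA2 shRNA cells after 10 cGy read 7.89, 8.30 and 8.30 at 6 h, against 8.92, 8.86 and 8.96 at 2 h, or -0.75 ± 0.13 (SE, limma adjusted p = 0.000132). Cdk1 read 10.86, 10.83 and 10.78 at 6 h in 10 cGy vector cells, against 11.31, 11.31 and 11.46 at 2 h, or -0.54 ± 0.07 (SE, limma adjusted p = 3.58e-06). The Cdk1 change in AnxA2 shRNA cells after 10 cGy was -0.49 ± 0.07 (SE, limma adjusted p = 1.5e-05), and after 100 cGy it was -0.26 ± 0.07 (SE, limma adjusted p = 0.0144). Birc5 and Prc1 were the other called genes in AnxA2 shRNA cells after 100 cGy, at -0.34 ± 0.10 and -0.33 ± 0.11 (SE). In vector cells after 100 cGy the called genes were Top2a, at -0.42 ± 0.09 (SE, limma adjusted p = 0.00424), and Ncapd2, at -0.29 ± 0.08 (SE, limma adjusted p = 0.0199).

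These counts depend on the samples in the fit. With only the compared groups, 2 genes were called in AnxA2 shRNA cells and 1 in vector cells after 10 cGy, and 0 in each line after 100 cGy. Without replicate 1 of AnxA2 shRNA cells at 6 h after 10 cGy, the array with the Gapdh difference of 1.06, 5 genes instead of 15 were called. In vector cells after 10 cGy, 10 genes were called without replicate 3 at 6 h and 13 without replicate 3 at 2 h. For AnxA2 shRNA cells after 100 cGy, 0 were called without replicate 1 or replicate 3 at 6 h, and 1 without replicate 2 at 6 h or replicate 1 at 2 h. In vector cells after 100 cGy, 1 was called without replicate 1 or 3 at 6 h or replicate 1 at 2 h, and 4 without replicate 2 at 2 h. Without the 3 vector replicate 3 arrays at 2 h, 5 were called after 100 cGy, 3 of them higher at 6 h and 2 lower, so no direction is given for vector cells after 100 cGy. The dose difference at 6 h minus that at 2 h, averaged over the lines in a comparison added after the data were seen, gave 0 of 42 genes and 0 of 8675 (0%) by limma. There 16 mitotic genes and 220 genes in all had an unadjusted p under 0.05, and Aurka had the smallest p, with 0.51 ± 0.10 (SE, limma adjusted p = 0.0619). Without replicate 3 of vector cells at 2 h after 100 cGy, 3 genes were called, without the 3 vector replicate 3 arrays 2, and 1 without replicate 1 of AnxA2 shRNA cells at 2 h after 100 cGy, replicate 2 of vector cells at 2 h after 10 cGy or replicate 1 of vector cells at 6 h after 10 cGy.

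From 6 to 24 h some mitotic genes fell and others rose. These comparisons share their 6 h arrays with the dose comparison at 6 h, so the values are set side by side and not counted as separate evidence. In vector cells given 100 cGy, 12 of 42 mitotic genes were lower at 24 h than at 6 h (limma, background 11.4%) and 0 were higher (background 16.4%), and the median change was -0.19. In vector cells given 10 cGy, 6 were higher at 24 h (background 13.8%), with a median of 0.19. AnxA2 shRNA cells given 100 cGy had 3 higher (background 13%) and 5 lower (background 12.1%), with a median of -0.02. AnxA2 shRNA cells given 10 cGy had 12 higher (background 13.1%) and 3 lower (background 10.6%), with a median of 0.13. As shares of the 42 genes, the 14.3% higher in vector cells after 10 cGy was near the 13.8% of all genes. In AnxA2 shRNA cells after 100 cGy, the 11.9% lower was near 12.1%, and the 7.14% higher was below 13%. In AnxA2 shRNA cells after 10 cGy, the 28.6% higher was above 13.1%, and the 7.14% lower was below 10.6%. The 28.6% lower in vector cells after 100 cGy was above 11.4%. Cell type markers moved as well. The log2 of the summed keratinocyte and epithelial markers was 8.92 to 9.06 at 24 h after 100 cGy in vector cells, against 9.27 to 9.41 at 6 h, and in AnxA2 shRNA cells 9.23 to 9.27 at 24 h, against 9.47 to 9.49 at 6 h. After 10 cGy it was 8.80 to 8.90 at 24 h in vector cells, against 9.32 to 9.42 at 6 h, and 9.23 to 9.31 at 24 h in AnxA2 shRNA cells, against 9.36 to 9.41 at 6 h. Of the 5 markers of this list above the limit, Itga6, an integrin subunit, was lower at 24 h in all 4 comparisons, and Krt14 was higher in AnxA2 shRNA cells at both doses (limma). The summed mesenchymal markers were 14.97 to 15.05 at 24 h after 100 cGy in vector cells, against 14.81 to 14.88 at 6 h, with Col3a1 higher by 1.17 ± 0.10 (SE, limma adjusted p = 1.3e-11). In the other comparisons they overlapped: 14.86 to 15.01 against 14.88 to 14.96 in vector cells after 10 cGy. In AnxA2 shRNA cells they were 15.17 to 15.28 against 15.18 to 15.19 after 100 cGy, and 15.09 to 15.20 against 15.11 to 15.18 after 10 cGy. In vector cells after 10 cGy the called changes were 0.81 for Col3a1, -0.68 for Cdh2 and -0.59 for Fn1. The part of these changes in the mitotic result was not tested.

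After 100 cGy, Aurka fell in both lines. In vector cells it read 9.11, 8.99 and 9.04 at 24 h, against 9.73, 9.81 and 9.78 at 6 h, or -0.73 ± 0.10 (SE, limma adjusted p = 2.34e-07). The AnxA2 shRNA arrays read 9.11, 9.13 and 8.93 at 24 h, against 9.51, 9.66 and 9.51 at 6 h, or -0.50 ± 0.10 (SE, limma adjusted p = 0.000141). The 24 h arrays lay below the 6 h arrays in each line. Tpx2 fell too, by 0.25 in AnxA2 shRNA cells and by 0.38 in vector cells. Plk1 read 8.56, 8.43 and 8.45 in vector cells at 24 h after 100 cGy, against 8.96, 8.95 and 8.86 at 6 h, or -0.44 ± 0.10 (SE, limma adjusted p = 0.00131). Cdc20 read 10.38, 10.26 and 10.27 at 24 h, against 10.70, 10.74 and 10.69 at 6 h, in the same cells, or -0.41 ± 0.09 (SE, limma adjusted p = 0.000618). Cenpa fell by 0.46 in vector cells after 100 cGy, and Cdc25c, Bub3, Cenpf, Kif4 and Kif20a were lower by between 0.22 and 0.32.

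Kif23 and Kif2c were lower at 24 h in 3 of these 4 comparisons. Kif23, a central spindle motor of cytokinesis, read 8.44, 8.45 and 8.55 at 24 h after 100 cGy, against 9.20, 9.14 and 9.09 at 6 h, in AnxA2 shRNA cells. In vector cells it read 8.08, 7.95 and 8.03 at 24 h after 100 cGy, against 8.70, 8.68 and 8.66 at 6 h. The change was -0.66 ± 0.10 in each line (SE, limma adjusted p = 6.84e-06 in AnxA2 shRNA cells and 5.33e-06 in vector cells). After 10 cGy it was -0.52 ± 0.10 in AnxA2 shRNA cells (SE, limma adjusted p = 0.000268), and in vector cells it was -0.28 (limma adjusted p = 0.0737). Kif2c, a microtubule-depolymerising kinesin, fell after 100 cGy by 0.39 in AnxA2 shRNA cells and by 0.57 in vector cells, and after 10 cGy by 0.48 in AnxA2 shRNA cells.

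After 10 cGy other genes were higher at 24 h. Aurkb, the kinase of the chromosomal passenger complex, read 9.01 and 8.91 in vector cells at 24 h, against 8.45, 8.22 and 8.27 at 6 h, or 0.65 ± 0.14 (SE, limma adjusted p = 0.000409). Aurkb in AnxA2 shRNA cells read 8.77, 8.78 and 8.70 at 24 h, against 8.05, 8.40 and 8.39 at 6 h, or 0.47 ± 0.12 (SE, limma adjusted p = 0.00382). Nusap1 rose by 0.41 ± 0.13 in AnxA2 shRNA cells and 0.61 ± 0.14 in vector cells (SE), and Cdk1 by 0.21 ± 0.07 and 0.34 ± 0.08 in the same order. Cdc25b showed the largest rise, in AnxA2 shRNA cells: 8.18, 8.00 and 8.63 at 24 h, against 7.75, 7.49 and 7.32 at 6 h, or 0.75 ± 0.19 (SE, limma adjusted p = 0.00361). Foxm1, the late cell cycle transcription factor, read 7.98, 7.99 and 8.53 at 24 h, against 7.13, 7.81 and 7.81 at 6 h, in AnxA2 shRNA cells, and 7.13 is again the array with the Gapdh difference of 1.06. Ect2 and Racgap1, which control the GTPase RhoA at the cleavage furrow, rose by 0.50 ± 0.17 and 0.45 ± 0.10 in AnxA2 shRNA cells, and the contractile ring gene Anln by 0.43 ± 0.11 (SE).

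Without that array, 7 genes instead of 15 were called in AnxA2 shRNA cells after 10 cGy, and 6 with only the compared groups, and its part in the result was not tested. When each of the 6 arrays of that comparison was left out, the rises of Cdc25b and Racgap1 were called in all 6 fits. Those of Aurkb and Anln were called in 5, those of Nusap1 and Foxm1 in 4, and those of Ect2 and Cdk1 in 2. For AnxA2 shRNA cells after 100 cGy, 4 instead of 8 were called without replicate 1 at 6 h or replicate 3 at 24 h. Left out in turn, the arrays of vector cells gave 8 to 11 calls after 100 cGy, and Aurka, Kif23, Kif2c, Cenpa, Plk1, Cdc20, Tpx2 and Kif4 were called in all 6 fits.

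**Figure D4:**
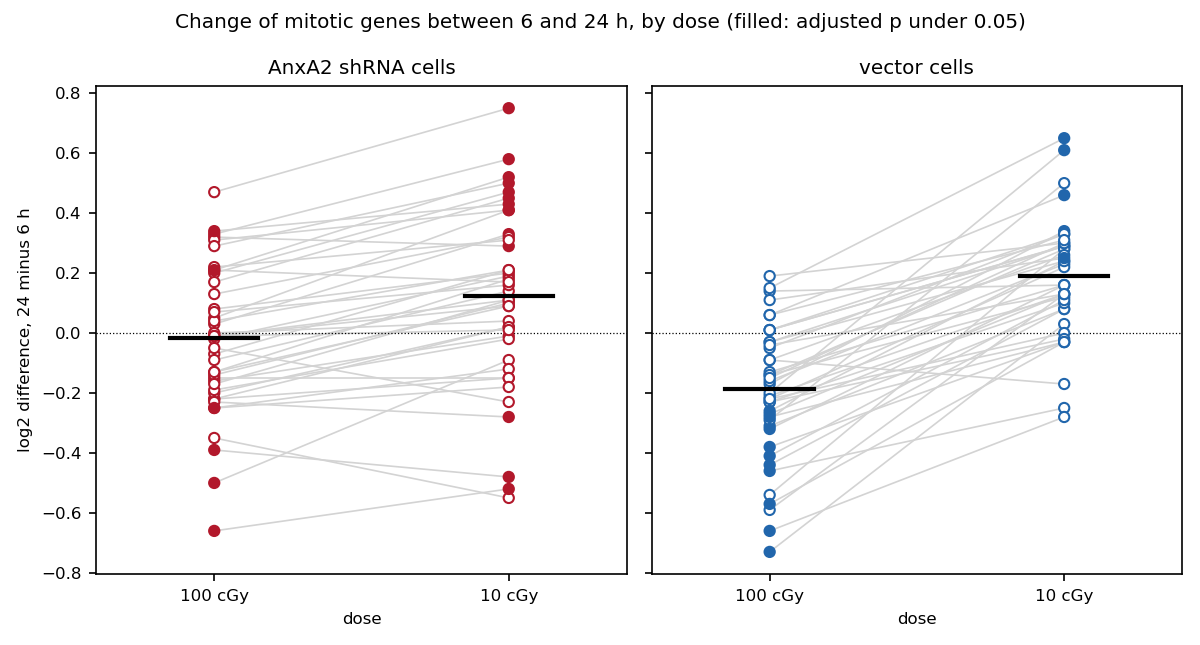
Change between 6 and 24 h (log2, 24 minus 6 h) of each of the 42 mitotic genes after 100 and 10 cGy, in AnxA2 shRNA cells on the left and vector cells on the right. Grey lines join a gene's values, black bars are medians and filled points have limma adjusted p under 0.05. In vector cells the median is -0.19 after 100 cGy, with 12 genes lower (28.6%, against 11.4% of all genes). After 10 cGy it is 0.19, with 6 genes higher (14.3%, near the 13.8% of all genes).

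Whether the dose difference itself changed between 6 and 24 h was tested over both lines in a comparison added after the data were seen. Aurka and Cdk1 passed, both lower (limma, background 0.0231%), and these were the only lower genes of 8675, with the list chosen when earlier results of these data were known. The change in the dose difference was -0.59 ± 0.10 for Aurka (SE, adjusted p = 0.0039) and -0.39 ± 0.07 for Cdk1 (SE, adjusted p = 0.0116). The median over the 42 genes was -0.26, and 23 mitotic genes and 263 genes in all had an unadjusted p under 0.05. At 24 h Aurka read 9.11, 9.13 and 8.93 after 100 cGy, against 9.21, 9.24 and 9.14 after 10 cGy, in AnxA2 shRNA cells, and 9.11, 8.99 and 9.04 against 9.32 and 9.08 in vector cells. Cdk1 at 24 h read 10.83, 10.77 and 10.81 after 100 cGy, against 10.85, 10.88 and 10.87 after 10 cGy, in AnxA2 shRNA cells, and 11.10, 10.94 and 10.96 against 11.21 and 11.10 in vector cells. For both genes the 100 cGy arrays lay above the 10 cGy arrays at 6 h in each line, whereas at 24 h they lay below them in AnxA2 shRNA cells and reached or overlapped them in vector cells. Aurka was called in all 23 fits that left out an array, and Cdk1 in 22: without replicate 1 of vector cells at 24 h after 10 cGy its adjusted p was 0.0704, and 1 gene was called. A replicate block within line and time called 4.

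Against untreated cells of the same time, no mitotic gene was called at 2 or 24 h. At 2 h, limma called 0 of 42 after 10 cGy in AnxA2 shRNA cells (background 0.0115%) and 0 in vector cells (background 0%), and 0 after 100 cGy in AnxA2 shRNA cells (background 0.0231%) and 0 in vector cells (background 0.0461%). In that order, 0, 3, 2 and 5 mitotic genes had an unadjusted p under 0.05, as did 388, 508, 363 and 987 of all 8675 genes. The 5 of vector cells after 100 cGy are 11.9% of the mitotic genes, near the 11.4% of all genes. At 24 h it called 0 after 10 cGy in AnxA2 shRNA cells (background 0%) and 0 in vector cells (background 0.0115%), and 0 after 100 cGy in AnxA2 shRNA cells (background 0.161%) and 0 in vector cells (background 0.0922%). There 2, 0, 2 and 13 mitotic genes had an unadjusted p under 0.05, as did 337, 88, 565 and 288 of all genes. The 2 doses share their untreated arrays, so they are not separate evidence.

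The 13 genes are those of vector cells at 24 h after 100 cGy, where the median difference from untreated cells was -0.16 and 38 of 42 were below 0. All 3 arrays lay below all 3 untreated arrays for 20 mitotic genes (background 5.27%). Nusap1 read 8.08, 8.04 and 7.92 after 100 cGy, against 8.45, 8.19 and 8.51 in untreated cells, or -0.37 ± 0.13 (SE, limma adjusted p = 0.986). Top2a read 10.37, 10.36 and 10.38, against 10.61, 10.62 and 10.65 in untreated cells, or -0.26 ± 0.09 (SE, limma adjusted p = 0.986). Ccnb2 went the other way, at 9.25, 9.11 and 9.16 after 100 cGy, against 8.97, 8.75 and 9.00 in untreated cells, or 0.27 ± 0.09 (SE, limma adjusted p = 0.842). Cdkn1a was higher in the same vector cells, by 0.82 ± 0.11 (SE, limma adjusted p = 0.000103). At 24 h after 100 cGy in AnxA2 shRNA cells the median of the mitotic genes was 0.00 and Cdkn1a differed by 0.05 ± 0.11 (SE, limma adjusted p = 0.961). Whether this effect of 100 cGy at 24 h differs between the lines was not tested, nor was a link between Cdkn1a and the mitotic genes.

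Mitotic genes also differed between the times in cells that were not irradiated. In untreated AnxA2 shRNA cells, 14 of 42 were lower at 24 h than at 2 h (limma, background 9.14%) and Ect2 was the 1 higher gene (background 10.1%). In untreated vector cells 17 were lower (background 12.9%). Kif23 read 8.52, 8.38 and 8.38 at 24 h, against 9.05, 9.06 and 9.11 at 2 h, in AnxA2 shRNA cells, or -0.65 ± 0.10 (SE, limma adjusted p = 1.51e-05). In vector cells it read 8.13, 8.24 and 8.13 at 24 h, against 8.89, 8.91 and 9.12 at 2 h, or -0.81 ± 0.10 (SE, limma adjusted p = 1.69e-07). Cenpa fell by 0.58 in AnxA2 shRNA cells and by 0.51 in vector cells, and Aurka by 0.45 and 0.40 in the same order. Ect2 was higher in untreated AnxA2 shRNA cells at 24 h by 0.57 ± 0.17 (SE, limma adjusted p = 0.0143). Without replicate 3 of untreated AnxA2 shRNA cells at 24 h, 8 genes were called, and without replicate 3 of untreated vector cells at 2 h, 11. With only the compared groups, 6 were called in vector cells. The summed keratinocyte and epithelial markers were 8.73 to 8.99 in untreated vector cells at 24 h, against 9.48 to 9.67 at 2 h, with Itga6 lower by 1.09 on the log2 scale (limma adjusted p = 2.7e-10), and 9.37 to 9.40 in untreated AnxA2 shRNA cells at 24 h, against 9.41 to 9.68 at 2 h. Itga6 was the brightest of these markers, with a mean log2 signal of 8.5. Mesenchymal markers called by limma in untreated vector cells went both ways: Col3a1 0.83, Pdgfrb 0.62, Cdh2 -0.71 and Col1a1 -0.59. In untreated AnxA2 shRNA cells they did so too: Pdgfrb 0.56, Snai2 0.48, Twist1 -0.61, Col1a1 -0.58 and Col3a1 -0.29. The part of these marker changes in the mitotic counts was not tested. The change over time was not shown to differ between the lines: 0 of 42 passed the limma interaction test (background 5.69%). An unadjusted p under 0.05 was found for 2 of the 42 (4.76%), against 18.9% of all genes. Without replicate 2 of untreated vector cells at 2 h, 2 passed.

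AnxA2 shRNA and vector cells differed in mitotic genes in both directions, with more higher than lower in AnxA2 shRNA cells. In the 4 single conditions mitotic genes were called about as often as genes in general, or less often. In untreated cells at 2 h, 9 of 42 were higher in AnxA2 shRNA cells (limma, background 16.3%) and 3 lower (background 17.5%). At 24 h, 12 were higher (background 19.4%) and 4 lower (background 19.9%). At 6 h after 10 cGy, 14 were higher (background 17.6%) and 1 lower (background 18.1%), and without the array with the Gapdh difference of 1.06, 13 genes were called. At 6 h after 100 cGy, 8 were higher (background 18.4%) and 3 lower (background 18.8%). Averaged over all 8 conditions, a comparison added after the data were seen, 24 were higher (background 34.9%) and 6 lower (background 33.9%), with a median of 0.11 against 0.02 over all genes. As shares of the 42 genes, the higher ones were 21.4% and 28.6% in untreated cells at 2 and 24 h, 33.3% and 19.0% at 6 h after 10 and 100 cGy, and 57.1% in the average. The lower ones were 2.38% to 9.52% in the 4 conditions and 14.3% in the average, each below the share of all genes. The 19.0% higher at 6 h after 100 cGy was near the 18.4% of all genes. By limma, 28.6% of the mitotic genes had an unadjusted p under 0.05 in untreated cells at 2 h, against 41.8% of all genes. At 24 h it was 40.5% against 46.4%. At 6 h it was 42.9% against 43.8% after 10 cGy and 38.1% against 44.3% after 100 cGy. Fitted on the compared groups alone, 6 genes were called in untreated cells at 2 h, 6 at 6 h after 10 cGy and 19 at 6 h after 100 cGy. Leaving out 1 array in turn gave 9 to 11 called in untreated cells at 2 h and 26 to 33 in the average. The 33 were without replicate 3 of untreated vector cells at 2 h. Each line is a single selection, so the knockdown and other differences between the lines cannot be told apart.

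Prc1, the microtubule crosslinker, and Ccna2, cyclin A2, were higher in AnxA2 shRNA cells by 0.51 each in that average, with limma adjusted p = 1.49e-14 for Prc1 and 1.36e-16 for Ccna2. Prc1 read 10.19, 9.98 and 10.07 in untreated AnxA2 shRNA cells at 24 h, against 9.53, 9.56 and 9.26 in vector cells, or 0.63 ± 0.11 (SE, limma adjusted p = 1.1e-05). At 2 h it read 10.35, 10.41 and 10.30 in AnxA2 shRNA cells, against 9.90, 9.86 and 10.32 in vector cells, where replicate 3 overlapped the AnxA2 shRNA arrays. Ccna2 read 10.54, 10.63 and 10.72 in untreated AnxA2 shRNA cells at 2 h, against 10.03, 10.11 and 10.14 in vector cells, or 0.54 ± 0.09 (SE, limma adjusted p = 1.02e-05). Mki67, the proliferation antigen that coats mitotic chromosomes, read 10.27, 10.21 and 10.12 in AnxA2 shRNA cells at 6 h after 100 cGy, against 9.68, 9.56 and 9.55 in vector cells, or 0.61 ± 0.12 (SE, limma adjusted p = 6.13e-05). No AnxA2 shRNA array overlapped a vector array in those Ccna2 and Mki67 comparisons. Kif20a, Anln, Ckap2 and Ccnb2 were each higher by 0.37 to 0.40 in the average over conditions.

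Cenpa, Kif4 and Cdk1 were lower in AnxA2 shRNA cells. Cenpa read 9.67, 9.65 and 9.50 at 6 h after 100 cGy, against 10.08, 10.06 and 10.20 in vector cells, or -0.50 ± 0.10 (SE, limma adjusted p = 9.23e-05). In untreated cells at 24 h it read 9.23, 9.27 and 9.11, against 9.61, 9.49 and 9.86 in vector cells, or -0.45 ± 0.10 (SE, limma adjusted p = 0.000368). The lines did not overlap in either condition. Kif4, a chromosome-associated kinesin, differed by -0.30 ± 0.03 and Cdk1 by -0.23 ± 0.03 in the average over conditions (SE, limma adjusted p = 1.74e-12 for Kif4 and 2.7e-10 for Cdk1). Cdk1 was thus lower and the cyclin genes Ccna2 and Ccnb2 higher in AnxA2 shRNA cells. The others lower in the average were Top2a and Aurkb, each at -0.13, and Aurka at -0.10.

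**Figure D5:**
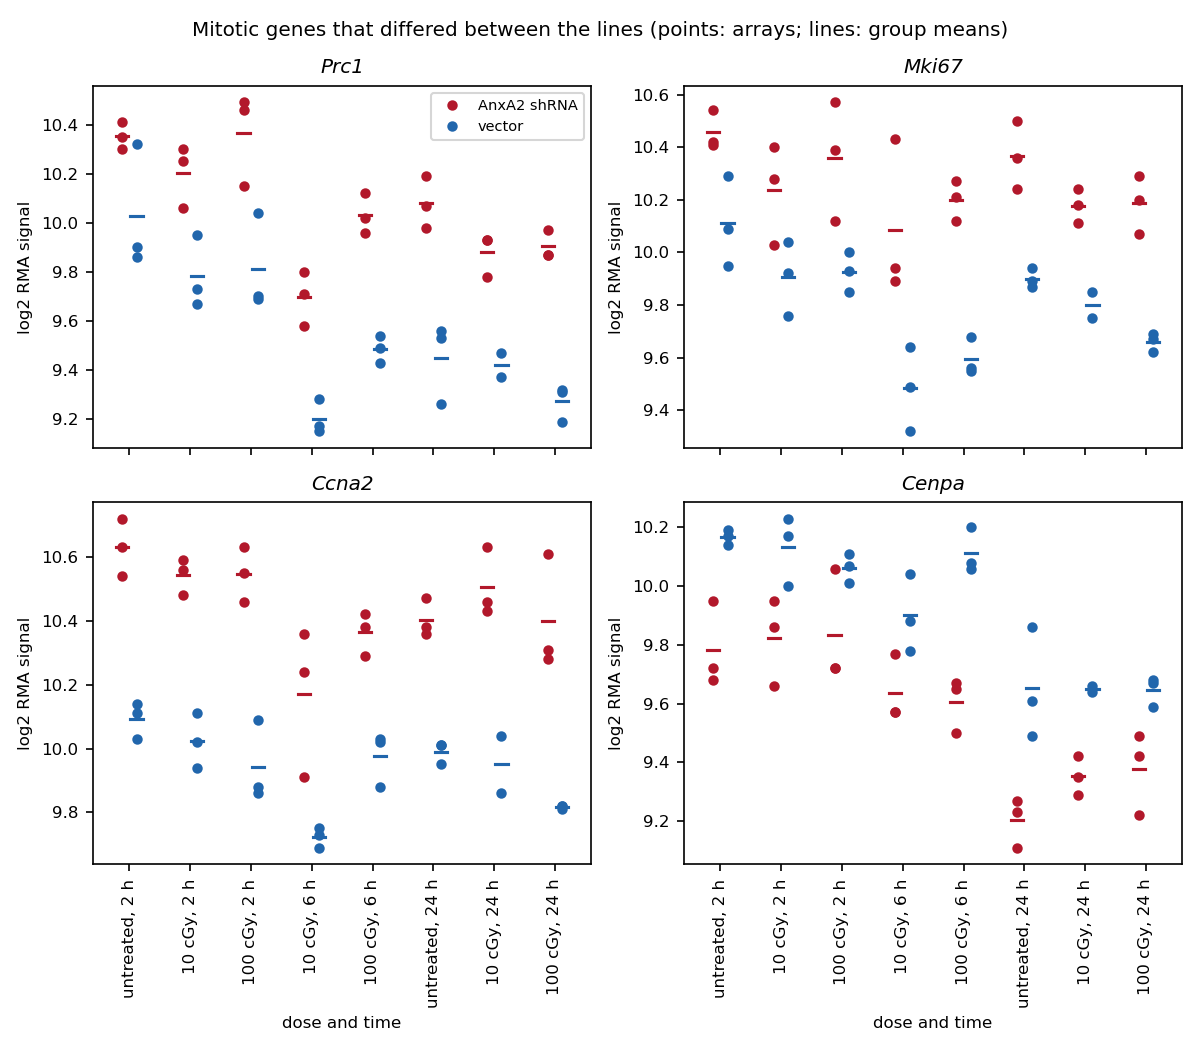
Log2 RMA signal of Prc1, Mki67, Ccna2 and Cenpa on every array, by dose and time, with AnxA2 shRNA cells in red to the left of vector cells in blue. Points are arrays and short lines are group means. Averaged over the 8 conditions the AnxA2 shRNA minus vector difference is 0.51 for Prc1, 0.46 for Mki67, 0.51 for Ccna2 and -0.34 for Cenpa.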

How the data were processed

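RNA of 47 JB6 samples was measured on Affymetrix mouse arrays with 22690 probe sets. The deposited values are log2 signals summarised by RMA per the submitters' processing notes. They range between 1.84 and 14.03, and no further normalisation was applied to what the authors deposited. The RMA version, array model and scan batches are not given in the sources used here. Groups follow the labelled line, dose and hour.

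Of the probe sets, 64 were controls, 20380 had exactly 1 gene symbol, 691 several and 1555 none, by the platform annotation. A gene's brightest probe set on average represents it, and the dimmest 30% of genes (average log2 signal under 4.35) were not tested. RMA values are on a log2 scale, so no pseudocount was used. limma 3.58.1 in R 4.3.3 fitted 16 group means to all 47 arrays (31 residual and 5.68 prior degrees of freedom), which assumes that all groups vary alike. Two-sided p-values received Benjamini-Hochberg adjustment across 8675 genes, with calls at 0.05. A probe set reports relative change, not amount between genes, and the number of arrays limits precision. The fit was checked on simulated data.

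The 44 genes and all other lists were chosen with earlier results of these data known. Arrays are given for the 2 genes of each role with the smallest p for dose at 6 h, the 6 largest called changes between 6 and 24 h, the 4 largest called line differences each way without overlap, and Cdk1, Plk1 and Cdc20, where room allowed. Other genes named were the 3 of each list with the smallest p, and Anxa2, Cdkn1a and Mybl2, and the rest, such as the Nusap1, Cdk1 and Kif23 arrays at other times, were chosen after their values were seen. In 3 of 24 comparisons of groups all 3 pairs with the same replicate number deviated together (correlation over 0.1), all in vector cells: 100 cGy against untreated at 2 h and at 24 h, and 24 against 6 h after 100 cGy. The replicate block moved no count there by over 1.5 times. The 2 comparisons with only 2 such pairs, both with vector cells at 24 h after 10 cGy, were not counted. Their correlations were also over 0.1: 0.36 and 0.25 against 6 h after 10 cGy, and 0.13 and 0.34 against untreated cells. Alternatives were other probe set rules, the filter, centring, a variance trend, the block, only the compared groups, and leaving out arrays.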

Additional observations from a re-analysis of the deposited data

Results flagged for a closer look

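For 2 mitotic genes the difference between 100 and 10 cGy at 24 h differed from that at 6 h, averaged over both lines, by the test of the difference itself (limma, adjusted p = 0.0039 for Aurka and 0.0116 for Cdk1). That comparison was added after the data were seen and shares its 6 h arrays with the dose comparison at 6 h. The change in the dose difference was -0.59 for Aurka and -0.39 for Cdk1. In 0 of 42 mitotic genes did the 6 h dose difference or the untreated change over time pass the test of a difference between the lines, where 2 genes each had an unadjusted p under 0.05 (limma). Those 2 are 4.76% of the mitotic genes, against 3.99% of all genes for dose at 6 h and 18.9% for the change over time.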

How the results depend on the processing

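The counts of called mitotic genes in 30 comparisons were recomputed under 202 alternatives other than leaving out single arrays, of which 180 stayed within 1.5 times, and in 272 fits without 1 array, of which 243 did. When a fit held only the groups compared, fewer samples give the variance, and the counts were 0 for dose at 6 h in vector cells, 2 for its mean over lines, 6 for 24 against 6 h after 10 cGy in AnxA2 shRNA cells and 6 for untreated 24 against 2 h in vector cells. For 6 against 2 h they were 2 in AnxA2 shRNA and 1 in vector cells after 10 cGy, and 0 in both after 100 cGy. For AnxA2 shRNA against vector they were 6 untreated at 2 h, 6 at 6 h after 10 cGy and 19 after 100 cGy. Without the signal filter, dose at 6 h in vector cells gave 3. A replicate block within line and time gave 1 for dose at 6 h in AnxA2 shRNA cells (Ckap2), 8 for the mean over lines, 4 for its change by 24 h and 1 for its change from 2 h. That last count, 0 as reported, was also 1 under the plain replicate block, the mean of all probe sets, median centring and the variance trend, and 2 without the 3 vector replicate 3 arrays. For 6 against 2 h after 100 cGy in vector cells, leaving out those 3 arrays gave 5, with 3 higher and 2 lower, and leaving out the 100 cGy one alone gave 3, with 2 higher. The causes were not tested. The plain replicate block moved no other count by over 1.5 times. Leaving out 1 array in turn gave 1 to 2 for dose at 6 h in vector cells, 1 to 2 for its change by 24 h over both lines and 0 to 3 for its change from 2 h. For 24 against 6 h it gave 7 to 15 (10 cGy) and 4 to 8 (100 cGy) in AnxA2 shRNA cells. For 6 against 2 h after 10 cGy it gave 5 to 15 in AnxA2 shRNA and 10 to 19 in vector cells, and after 100 cGy 0 to 3 and 1 to 4. For untreated 24 against 2 h it gave 8 to 14 in AnxA2 shRNA cells, 11 to 19 in vector cells and 0 to 2 for their difference. Of 16 mitotic genes with several tested probe sets, 15 had 1 sign for dose at 6 h in AnxA2 shRNA cells and 13 in vector cells. Fewer had 1 sign in some other comparisons. In AnxA2 shRNA cells there were 10 for 24 against 6 h after 100 cGy and 10 for 6 against 2 h after 10 cGy. For AnxA2 shRNA against vector there were 10 and 13 in untreated cells at 2 and 24 h. At 6 h that comparison had 11 after 10 cGy and 13 after 100 cGy. Low signals limit little here, since all 42 genes passed the filter, but groups of 3 arrays, and of 2 in vector cells at 24 h after 10 cGy, limit every test.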

Other observations

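In vector cells given 100 cGy, 22 of 48 tested genes of G1 and S phase were higher and 1 lower at 24 h than at 6 h (limma), with a median of 0.25. Of all genes 16.4% were higher and 11.4% lower in that comparison, and 12 of 42 mitotic genes were lower. Mcm3, a subunit of the replicative helicase, was higher by 0.62 ± 0.10 (SE, limma adjusted p = 5.06e-06), Lig1, the replicative DNA ligase, by 0.71 ± 0.10 (SE, limma adjusted p = 1.4e-06) and Chaf1b by 0.58 ± 0.08 (SE, limma adjusted p = 9.15e-07). In AnxA2 shRNA cells given 100 cGy, 9 of 48 were higher and 1 lower, with a median of 0.11, where 13% of all genes were higher and 12.1% lower.

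The p53 targets Cdkn1a and Mdm2 were lower at 24 h than at 6 h after 100 cGy in both lines. Cdkn1a differed by -0.68 ± 0.11 in AnxA2 shRNA cells and -0.59 ± 0.11 in vector cells, and Mdm2 by -0.68 ± 0.11 and -0.75 ± 0.11 in the same order (SE). The pocket protein gene Rbl2, a member of the DREAM complex, was higher at 24 h in AnxA2 shRNA cells by 1.08 ± 0.19 after 100 cGy and 1.20 ± 0.19 after 10 cGy (SE, limma adjusted p = 3.62e-05 and 8.18e-06 in that order). Anapc2, a core APC/C subunit, was higher at 24 h by 0.45 ± 0.08 in AnxA2 shRNA cells and 0.40 ± 0.08 in vector cells after 100 cGy (SE).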
